A study of Mus musculus with 30 samples.

Results

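In RNA of small brain vessel fragments, 9 genes known from neurons were followed: Map2, Snap25, Syt1, Camk2a, Gabra6, Gria4, Ddn, Nrn1 and Calb1. They are 9 of the 18194 genes that the array covers, measured by 27 of its 45101 probe sets. Some of them were picked because they differ between cerebrum and cerebellum, so their values in the regions are given as a description with no test. The comparisons of mutants with controls were tested, over all 11243 genes with measurable signal.

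RNA of microvascular fragments had been hybridised to 30 Affymetrix mouse arrays, in a study of mice whose brain vessels lack pericytes, the cells that sit on the capillary wall. In the first model, 4 pdgfbret/ret mice (ret mutants, 10, 7, 7 and 7 months old) made PDGF-B without its retention motif, and 4 pdgfbret/+ heterozygotes served as controls (ret controls, 8, 8, 8 and 10 months old). Both were on the C57/B6/J strain, and the controls carry 1 mutant allele too. Which part of the brain they came from is not labelled. The R26P mutants of the other model (Tie2Cre, R26P+/0, pdgfb-/-) lacked mouse PDGF-B and carried 1 copy of a human PDGF-B transgene at the Rosa26 locus, switched on by Tie2-Cre. That Cre is active in endothelium and also in blood cells. R26P controls (R26P+/0, pdgfb+/+) carried the same transgene in its silent form and kept mouse PDGF-B. Both were on a mixed C57/SV129 background, with 4 arrays each of cerebrum and of cerebellum, and their age is 1 year in one label and 2 months in another. Wild-type mice (Notch3+/+, C57/B6/J, 2 months old) gave 3 arrays of each region. All groups held both sexes per their labels, but Xist signal went against the sex label on all 4 ret control arrays and on no other array. All values below are the authors' deposited log2 signals. Wild type was normalized apart from the other 24 arrays, so it was compared only between its own regions.

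Endothelial markers were bright on every array, with a list mean of 13.06 to 13.85. The pericyte list mean was 11.55 to 12.03 in ret controls and 7.48 to 8.63 in ret mutants. Growth hormone (Gh), a transcript of the pituitary gland, was at 13.68 or above on 9 of 30 arrays and at 4.83 or below on the other 21. These 9 arrays were ret mutants 1, 2 and 4, R26P control cerebrum 2 and 3, R26P mutant cerebrum 2 and 3, R26P mutant cerebellum 3 and wild-type cerebrum 3. The labels say nothing of it, and Gh is given below beside the values of these arrays where a result rests on them. The region labels of R26P mutant pair 3 are also unsettled, since its cerebellum array had Ddn at 3.56 and Gabra6 at 2.21, against 2.39 for Gabra6 in its cerebrum array. Other values of the pair ran as labelled, with Ddn higher in cerebrum (5.10) and the choroid plexus list mean higher in cerebellum (12.32 against 11.84), as in the other mutant pairs.

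Neurons are no part of the vessel wall, but their processes and synapses press against it, and RNA lies in dendrites as well as in cell bodies. Map2 protein binds microtubules in dendrites, whereas Snap25 and Syt1 belong to the machinery that fuses synaptic vesicles with the membrane. Camk2a, Ddn (dendrin) and Nrn1 (neuritin) are characteristic of excitatory forebrain neurons, and transcripts of Camk2a and Ddn are known to travel into dendrites. Gabra6, a subunit of the GABA-A receptor, is made almost only by cerebellar granule cells. Gria4, an AMPA receptor subunit, is prominent in the cerebellum, where granule cells and Bergmann glia both make it, so it does not mark neurons alone. Calb1, a calcium buffer, marks Purkinje cells and also some forebrain neurons. In vessel fragments, fewer neuronal remnants and less RNA in each of them cannot be told apart.

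RefSeq promoters (build GRCm38.p6, 250 bases before to 50 after the start of transcription) were at hand for Map2, Gabra6, Gria4 and Syt1. The first 3 are shown because Map2 had the steepest fall of the 9 in R26P mutants, while Gabra6 and Gria4 were higher in cerebellum in every wild-type and R26P control pair. The Map2 promoter lies at chr1:66175079-66175378 on the plus strand, that of Gabra6 at chr11:42321023-42321322 and that of Gria4 at chr9:4796185-4796484, both on the minus strand. Capitals mark matches, on either strand, to the half-sites of REST (CAGCACC or GGACAG), a repressor of neuronal genes, or of NFI (TTGGC), a factor family known to act on Gabra6 in granule cells.
Map2: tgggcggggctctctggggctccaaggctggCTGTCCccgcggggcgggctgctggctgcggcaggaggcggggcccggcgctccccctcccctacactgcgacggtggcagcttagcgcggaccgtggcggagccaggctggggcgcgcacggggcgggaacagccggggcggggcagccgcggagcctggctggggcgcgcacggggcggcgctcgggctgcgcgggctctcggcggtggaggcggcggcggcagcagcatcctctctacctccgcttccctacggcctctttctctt
Gabra6: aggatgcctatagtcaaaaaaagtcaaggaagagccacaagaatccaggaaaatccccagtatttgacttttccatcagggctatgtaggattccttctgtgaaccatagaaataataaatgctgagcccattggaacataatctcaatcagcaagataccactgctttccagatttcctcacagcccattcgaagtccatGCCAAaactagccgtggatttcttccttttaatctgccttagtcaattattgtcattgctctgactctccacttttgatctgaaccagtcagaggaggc
Gria4: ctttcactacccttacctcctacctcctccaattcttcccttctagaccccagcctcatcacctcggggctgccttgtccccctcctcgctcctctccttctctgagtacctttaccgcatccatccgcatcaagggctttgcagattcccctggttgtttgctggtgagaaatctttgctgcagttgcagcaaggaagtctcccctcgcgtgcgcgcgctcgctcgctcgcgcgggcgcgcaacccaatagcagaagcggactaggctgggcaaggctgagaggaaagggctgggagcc
Map2 held the REST half-site GGACAG as its reverse complement, 219 bases before the start (position -219). Gabra6 held an NFI half-site at position -49, and Gria4 held none of the motifs searched. Syt1, not shown, held an NFI half-site at -73 and the REST half-site GGACAG, as its reverse complement, at -161 in 1 promoter. Its other listed promoter held none, and the NFI half-site is thus not particular to Gabra6. Short half-sites are common: of 32851 promoters, 46.7% held TTGGC, 22.2% held GGACAG and 7.14% held CAGCACC, while the full NFI palindrome, searched with any 5 bases between both arms, was in 0.0365%. These matches describe letters in a window and say nothing of binding in these samples.

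Of the 27 probe sets, 1 per gene, the brightest, is used below. Of the other 18, which belong to 7 of the genes, 17 never rose above 4 on any array. The exception was a second Camk2a probe set, at 5.04, 5.19 and 5.68 in wild-type cerebrum and 5.04, 4.86 and 3.94 in wild-type cerebellum. On the other 24 arrays it ran from 2.16 to 3.02, with the highest values in R26P mutant cerebrum. Several probe sets also have a background value that many arrays share, as the plot of all 9 genes by array shows. It was 3.02 for Syt1, which 17 of 24 arrays did not exceed by more than 0.05, 2.44 for Camk2a (19 of 24), 2.26 for Nrn1 (18 of 24), 3.23 for Gria4 (17 of 24) and 2.16 for Gabra6 (15 of 24).

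**Figure D1:**
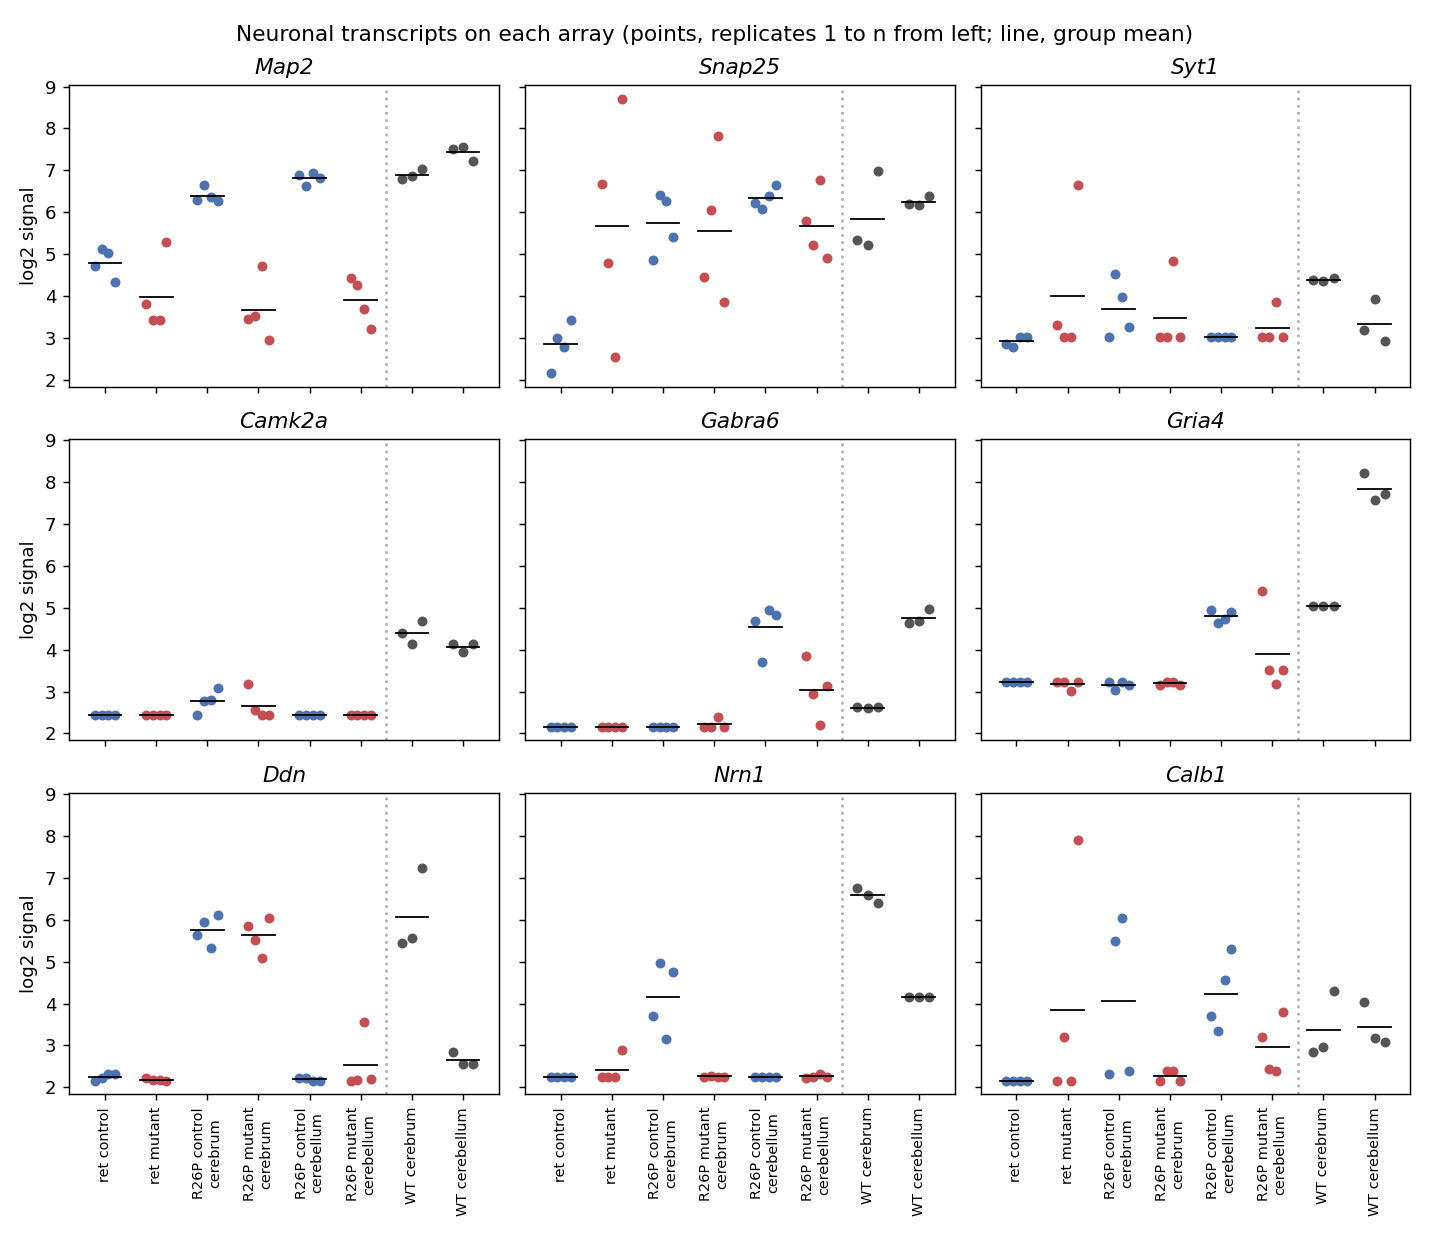
Log2 signal (y axis) of the 9 neuronal genes on each of 30 arrays, by group (x axis), with controls in blue, mutants in red and wild type in grey, points in order of replicate number and a line at the group mean. Arrays right of the dotted line were normalized apart. Map2 is lower in both R26P mutant groups than in their controls, at 2.95 to 4.72 against 6.27 to 6.93, and Snap25 spreads from 2.54 to 8.71 among ret mutants.

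Map2 was the neuronal transcript with the clearest fall in R26P mutants, in both regions. In cerebrum, the controls had 6.28, 6.65, 6.35 and 6.27, and the mutants 3.45, 3.53, 4.72 and 2.95. No mutant array reached a control, and the highest mutant array was replicate 3, one of the arrays with high Gh. The fall was -2.73 ± 0.34 (SE) on the log2 scale, or 6.63-fold (limma adjusted p = 0.0017). In cerebellum, the controls had 6.88, 6.63, 6.93 and 6.81, and the mutants 4.43, 4.27, 3.69 and 3.20. Again no mutant array reached a control. The change was -2.92 ± 0.26, or 7.55-fold (adjusted p = 4.9e-04), and it held in both regions under every alternative that kept the gene in the test, with adjusted p of at most 0.0114 in cerebrum and 0.00727 in cerebellum. With the pituitary list mean as a covariate, added after the data were seen, the cerebrum value was -2.83 (adjusted p = 8.3e-04).

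In ret controls Map2 stood lower than in R26P controls, at 4.72, 5.12, 5.02 and 4.32. Ret mutants had 3.81, 3.42, 3.41 and 5.29. Mutants 1 to 3 lay below every control, and mutant 4, the array with the highest Gh (15.23), lay above every control. The difference of -0.81 ± 0.43 did not pass (adjusted p = 0.231). Without ret mutant 4 it was -1.25, with adjusted p = 0.0111, so 1 array set the call. The ret effect minus the R26P effect in cerebrum was 1.91 ± 0.57 (adjusted p = 0.0779), which also missed the threshold. It passed (2.27, adjusted p = 0.0328) without R26P mutant cerebrum 3. Ret and R26P mice differ in strain, labelled age and region as well as in alleles, and these cannot be told apart.

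Transcripts of pericytes and of astrocytes were lower on the same mutant arrays, while most endothelial genes had no call. Of 8 pericyte genes tested, 8 fell in the ret model and in both regions of the R26P model. In R26P cerebrum the pericyte list mean was 12.38 to 12.66 in controls and 7.76 to 9.51 in mutants, and the astrocyte mean 9.14 to 9.36 and 7.28 to 7.76. In R26P cerebellum the pericyte means were 13.13 to 13.25 and 8.94 to 10.57, and the astrocyte means 9.05 to 9.40 and 7.30 to 8.48. Of the 9 astrocyte genes tested, 7 fell in R26P cerebrum, where 10.3% of all genes were called lower, 6 in R26P cerebellum (8.7%) and 5 in ret mutants (8.63%). Of 5 perivascular fibroblast genes, 4 fell in each R26P region, and of 5 smooth muscle genes, 5 fell in R26P cerebrum and 1 in R26P cerebellum. Of 5 choroid plexus and ependyma genes, 1 fell in R26P cerebrum and 0 in R26P cerebellum, with median changes of -1.41 and -1.02. Oligodendrocyte genes had 0 falls of 5 in either region. Of 12 endothelial genes, 1 fell and 2 rose in R26P cerebrum, and 0 fell and 3 rose in R26P cerebellum. At an unadjusted p under 0.05 in limma there were 5 of 12 in cerebrum and 9 of 12 in cerebellum. The endothelial list mean in R26P cerebellum was 13.21 to 13.45 in controls and 13.61 to 13.64 in mutants, so endothelium was not flat there. The part of these cell types in the fall of Map2 was not tested. Ret mutant 4, with the highest Map2 of its group, also had that group's highest means for pericytes (8.63), smooth muscle (10.94) and astrocytes (8.49). The same held for microglia (12.40), perivascular fibroblasts (8.10) and choroid plexus and ependyma (11.93). Its endothelial mean (13.58) was the lowest of the group, and its oligodendrocyte mean was 8.03.

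**Figure D2:**
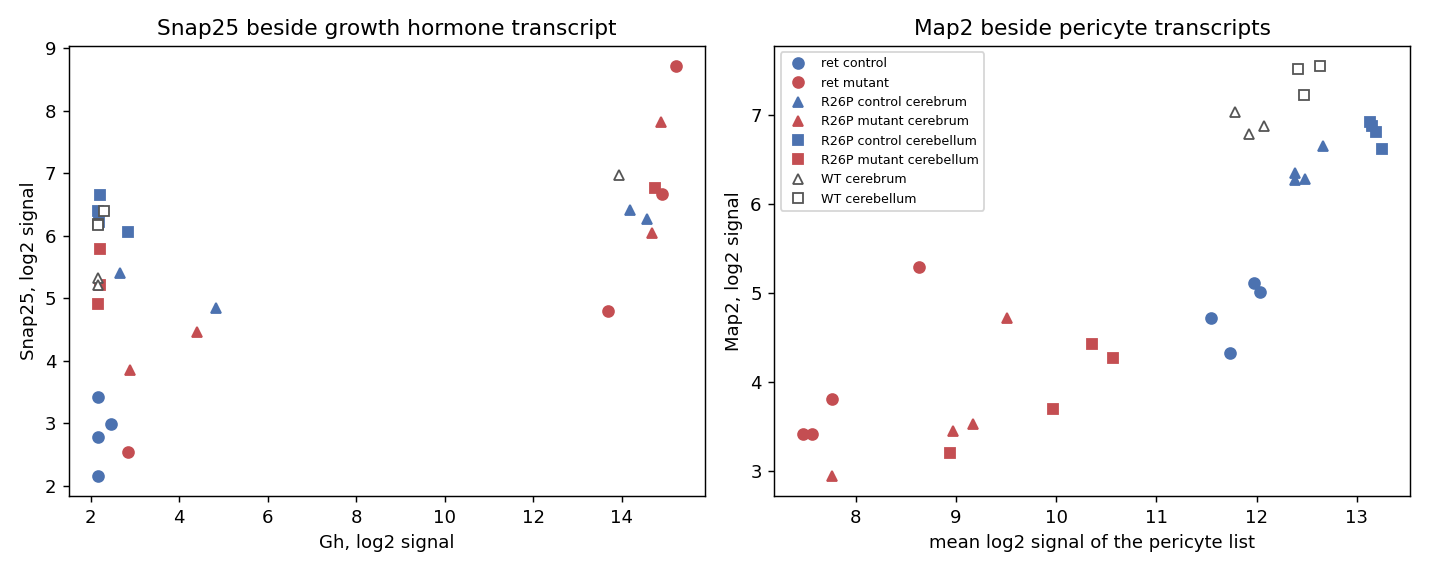
Left, log2 signal of Snap25 (y axis) against that of Gh (x axis); right, log2 signal of Map2 (y axis) against the mean log2 signal of the pericyte list (x axis), with 1 point per array and groups by colour and shape. Ret mutants 1, 2 and 4 lie at the right of the left panel, at Gh of 13.68 to 15.23, and the R26P mutants lie at the lower left of the right panel, at pericyte means of 7.76 to 10.57.

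The release gene Snap25 had no call in any model, and in each group with high Gh on some arrays its highest value was on one of them. Ret controls had 2.16, 2.99, 2.79 and 3.42, and ret mutants 6.67, 4.79, 2.54 and 8.71. Mutant 3, the ret mutant without high Gh (2.84), lay among the controls, and the other mutants lay above all of them. The difference was 2.84 ± 1.19 (adjusted p = 0.145), and without mutant 3 it was 3.88 (adjusted p = 0.0341). With the pituitary list mean as a covariate it was -0.89 (adjusted p = 0.602), the opposite sign. That mean largely followed genotype in the ret model, so this value cannot tell the pituitary and the genotype apart.

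In R26P control cerebrum Snap25 was at 4.85, 6.42, 6.27 and 5.41, and in mutant cerebrum at 4.46, 6.05, 7.83 and 3.85. In each group the arrays with high Gh, replicates 2 and 3, had the highest values, and the groups overlapped. The difference was -0.19 ± 0.84 (adjusted p = 0.893). In cerebellum the controls were close together at 6.23, 6.06, 6.39 and 6.66, and the mutants had 5.79, 5.22, 6.77 and 4.91. Mutant 3, with Gh at 14.75, was above every control, and the other mutants were below every control. The difference of -0.66 ± 0.38 did not pass (adjusted p = 0.272), but without mutant 3 it was -1.03 (adjusted p = 0.0426). Wild-type cerebrum had 5.33, 5.22 and 6.98, the last on the array with Gh at 13.93, and wild-type cerebellum had 6.19, 6.18 and 6.39. The pituitary list itself reached means of 3.70 to 12.21 in ret mutants and 3.35 to 3.43 in ret controls, and 2 of its 7 tested genes were called higher. The pituitary makes Snap25 too, and its part in these values was not tested beyond the covariate. In the ret model mutants 1, 2 and 4 had pituitary means of 9.84 or above, and only mutant 3 (3.70) was near the controls. Ret values with the covariate therefore lean on that 1 array and are no measure of the pituitary's part.

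Syt1, the calcium sensor of vesicle release, was at or near its background value of 3.02 on most arrays and above it on a few. Ret controls had 2.85, 2.78, 3.02 and 3.01, and ret mutants 3.31, 3.02, 3.01 and 6.65, so mutant 4, with Gh at 15.23, set most of the difference of 1.08 ± 0.79 (adjusted p = 0.381). With the pituitary covariate, which largely follows genotype in this model, it was -0.52 (adjusted p = 0.831), the opposite sign. R26P control cerebrum had 3.02, 4.53, 3.97 and 3.25, and mutant cerebrum 3.01, 3.02, 4.83 and 3.02. All 4 control cerebellum arrays were at 3.02, and the mutants had 3.01, 3.01, 3.86 and 3.01. In 4 of these groups the highest array was one with high Gh. The R26P differences were -0.22 ± 0.50 in cerebrum (adjusted p = 0.778) and 0.21 ± 0.19 in cerebellum (adjusted p = 0.489). Wild-type cerebrum had 4.38, 4.35 and 4.42, and wild-type cerebellum 3.18, 3.93 and 2.91.

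Nrn1, a small surface-bound protein of excitatory neurons induced by activity, was above background in control cerebrum and not in mutant cerebrum. R26P controls had 3.71, 4.97, 3.16 and 4.74, and the mutants 2.26, 2.28, 2.26 and 2.26. Every mutant lay at or next to the shared background value, below every control. Nrn1 was above 4 on 8 arrays, all of wild type or R26P control cerebrum, so it entered the test through them. The change was -1.88 ± 0.38, or 3.69-fold (adjusted p = 0.0130). Its size depends on where the background correction puts a probe set with no signal. The call held under every alternative that kept the gene in the test, with adjusted p up to 0.0463, and the value with the pituitary covariate was -1.88. In ret mice 7 of 8 arrays were at 2.26 and ret mutant 4 was at 2.90, so there was no signal in ret controls that could be lost. The effects of the models differed by 2.04 ± 0.43 (adjusted p = 0.0246), against 3.35% of all tested genes called in that comparison. This call was lost with no expression filter (adjusted p = 0.0537) and without ret control 1 (0.0523). In cerebellum Nrn1 was at 2.26 on all 4 control arrays and at 2.22 to 2.33 in the mutants.

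Ddn, the dendritic protein of forebrain synapses, did not pass the test in mutant cerebrum, where Map2 and Nrn1 fell. R26P controls had 5.65, 5.95, 5.34 and 6.13, and the mutants 5.86, 5.53, 5.10 and 6.05. The groups overlapped almost fully, and the difference was -0.13 ± 0.24 (adjusted p = 0.734). In cerebellum 7 of 8 arrays lay between 2.16 and 2.23, and mutant 3, with Gh at 14.75, was at 3.56. The difference there was 0.33 ± 0.31 (adjusted p = 0.494). All 8 ret arrays were between 2.16 and 2.32.

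Camk2a, the kinase of excitatory synapses, was close to its limit of measurement. It entered the tests only through wild type, where cerebrum had 4.41, 4.13 and 4.70 and cerebellum 4.13, 3.96 and 4.13. R26P control cerebrum had 2.44, 2.78, 2.79 and 3.08, and mutant cerebrum 3.19, 2.55, 2.44 and 2.44. All 16 ret and R26P cerebellum arrays were at 2.44. The cerebrum groups overlapped, with a difference of -0.12 ± 0.20 (adjusted p = 0.716). The second probe set ran the other way, at 2.43, 2.40, 2.38 and 2.57 in controls and 3.01, 3.02, 2.46 and 2.80 in mutants, so no direction is given for Camk2a.

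Gabra6 was measurable in cerebellum and was called lower there in R26P mutants, with a less stable call than Map2. It was above 4 on 6 arrays, all of wild-type or R26P control cerebellum, so it entered the test through groups where it was high. The controls had 4.69, 3.70, 4.96 and 4.83, and the mutants 3.85, 2.93, 2.21 and 3.14. Mutant 1 lay above control 2, and the other mutants lay below every control. The change was -1.51 ± 0.39, or 2.85-fold (adjusted p = 0.0382). It missed the threshold with no expression filter (adjusted p = 0.107), with the replicate number as a block (0.0686), without mutant 2, 3 or 4 (0.0885, 0.0816 and 0.0703) and without control 1, 3 or 4 (0.0952, 0.0836 and 0.0815). Controls and mutants of the same number do not pair, so the block value carries little weight. Without mutant 3, whose region label is unsettled, the change was -1.24. On the 16 ret and cerebrum arrays of these models Gabra6 was at 2.16, with mutant cerebrum 3 at 2.39 as the exception.

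Gria4 ran beside Gabra6 in cerebellum but passed no test. The controls had 4.96, 4.65, 4.74 and 4.90, and the mutants 5.40, 3.52, 3.19 and 3.51. Mutant 1 was above every control, and the other mutants were below every control. The difference was -0.91 ± 0.45 (adjusted p = 0.211), and without mutant 1 it was -1.41 (adjusted p = 0.0013). That array had Gh at 2.22, a pericyte mean of 10.36 and the highest astrocyte mean of its group, at 8.48 against 7.30 to 7.92. The part of astrocytes or Bergmann glia in its Gria4 value was not tested. On the ret and cerebrum arrays of these models Gria4 was between 3.01 and 3.23.

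Calb1 varied widely within groups and passed no test. Ret controls were all at 2.16, and ret mutants had 2.16, 3.20, 2.16 and 7.90. Mutant 4, with Gh at 15.23, set most of the difference of 1.69 ± 1.21 (adjusted p = 0.375). With the pituitary covariate, which largely follows genotype in the ret model, it was -0.84 (adjusted p = 0.818), the opposite sign. R26P control cerebrum had 2.32, 5.49, 6.04 and 2.38, with the high values on the arrays with Gh at 14.19 and 14.58. Mutant cerebrum had 2.16, 2.38, 2.38 and 2.16, although replicates 2 and 3 there had Gh at 14.69 and 14.89. The difference was -1.79 ± 0.87 (adjusted p = 0.191). In cerebellum the controls had 3.71, 3.35, 4.56 and 5.31 and the mutants 3.21, 2.44, 2.38 and 3.79, an overlapping difference of -1.28 ± 0.49 (adjusted p = 0.119).

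Counted over the 9 genes, 0 passed limma's test in ret mutants (1 at an unadjusted p under 0.05), against 16.6% of all 11243 genes called there. In R26P cerebrum 2 of 9 were called lower (Map2 and Nrn1) and 0 higher, against 10.3% of all genes called lower. In R26P cerebellum 2 of 9 were called lower (Map2 and Gabra6) and 0 higher, against 8.7%. Nrn1 and Gabra6 had entered the tests only through wild type and the R26P control group where they were high. Their calls therefore add nothing to these counts beyond a description, and that of Gabra6 was lost with no expression filter. Groups did not overlap for 2 of 9 in cerebrum (Map2 and Nrn1), against 25.9% of all genes, and for 1 of 9 in cerebellum (Map2), against 22.8%. With 9 genes, these counts do not set the group apart from other genes. Their median change was 0.00 in the ret model, -0.19 in cerebrum and -0.66 in cerebellum of the R26P model. The median of all tested genes was 0.01 in the ret model and R26P cerebrum and 0.00 in R26P cerebellum.

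**Figure D3:**
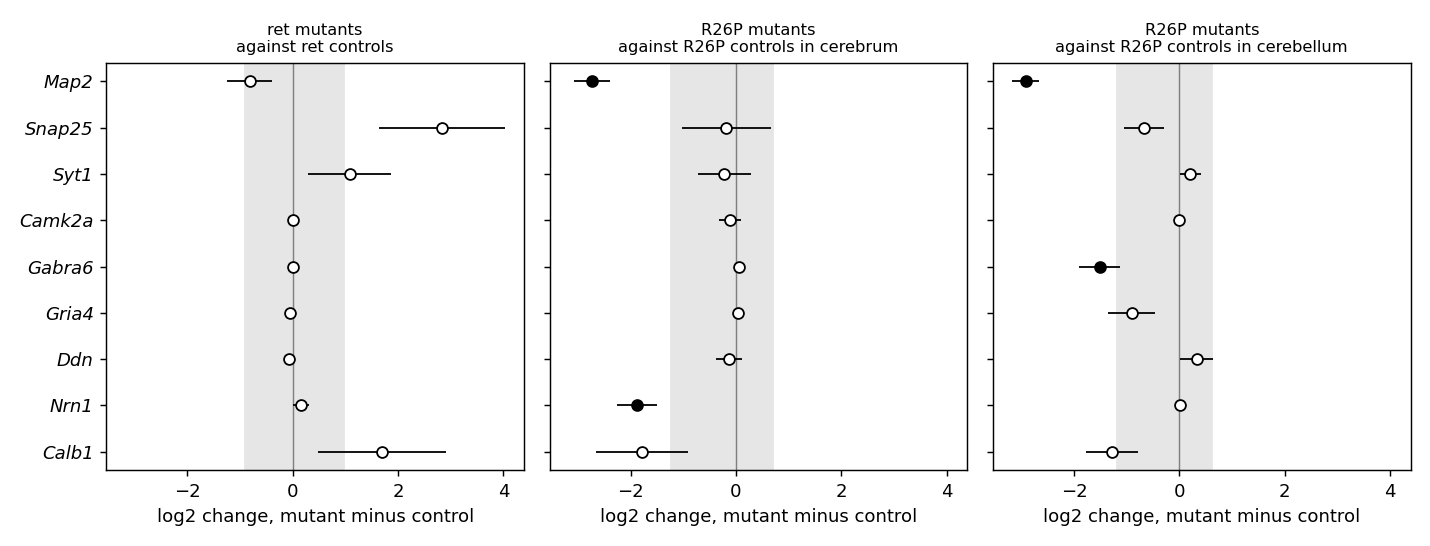
Log2 change, mutant minus control (x axis), of each of the 9 genes (y axis) in the ret model, R26P cerebrum and R26P cerebellum; points are limma estimates, bars are 1 standard error, filled points have an adjusted p under 0.05, and the grey band spans percentiles 5 to 95 of all 11243 genes. The filled points are Map2 at -2.73 and Nrn1 at -1.88 in cerebrum and Map2 at -2.92 and Gabra6 at -1.51 in cerebellum. Nrn1 and Gabra6 entered the tests only through wild type and the R26P control group where they were high.

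A wider set of 79 neuronal genes in 6 lists was read beside the 9. Of these, 68 were on the array under 1 gene name and 32 passed the expression filter. Of the 36 that did not, 31 never rose above 4 on any array. Among them were transcripts that are abundant in brain tissue, such as the vesicular glutamate transporter Slc17a7 (highest array 2.55), the synaptic gene Nrgn (2.17), the synapsin Syn1 (2.39), the neurofilament Nefl (3.79) and the Purkinje gene Pcp2 (3.67). Whether their RNA was absent or their probes weak was not tested. Other list genes were bright, with ret control means of 10.74 for Stx1a, 10.46 for Shank3, 10.17 for Stmn2 and 9.22 for Cadps2. Rab3a had a mean of 11.14 in R26P control cerebrum. Some called genes were dim, such as Rbfox3 (2.27) and Chn1 (4.21) in ret controls and Gria1 (3.62) in R26P control cerebrum. Which cells of the fragments gave these signals was not tested, so changes in list genes need not be changes in neuronal remnants.

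In R26P mutant cerebrum 6 of the 32 tested neuronal genes fell and 0 rose, where 10.3% of all genes fell. The count was 3 with no expression filter and 2 to 10 with 1 array left out. Excitatory postsynaptic and projection neuron genes gave 3 of the 6, out of 7 tested. Chn1, a Rac regulator of neurons, fell by 2.57 ± 0.33 on the log2 scale (adjusted p = 0.0019). Its mean was 5.67 in these controls and 3.10 in the mutants. It passed the filter cut of 4 only through control and wild-type arrays, where it was high. Its call therefore adds nothing to the count beyond a description, here and in the comparisons below. The AMPA receptor subunit Gria1 fell by 0.97 ± 0.24 (adjusted p = 0.0297), and the secreted glycoprotein Olfm1 fell by 0.69 ± 0.17 (adjusted p = 0.0287). Gria1 was dim here, with means of 3.62 in controls and 2.64 in mutants, both under the filter cut of 4. It passed the filter mainly through other groups, such as ret controls (5.16). The GABA-synthesizing enzyme Gad1 fell by 1.56 ± 0.22 (adjusted p = 0.0032) and Car8, a gene of the Purkinje list, fell by 1.65 ± 0.38 (adjusted p = 0.0223). Gad1 had means of 5.23 in controls and 3.67 in mutants, so between these groups it too reached the filter cut only where it was high. Car8 had a mean of 6.91 in these cerebrum controls, so it is not read as a Purkinje cell marker here. The vesicle GTPase Rab3a fell by 0.52 ± 0.12 (adjusted p = 0.0195). No gene of 8 tested in the cytoskeleton list passed (3 at an unadjusted p under 0.05), although Map2 itself, a cytoskeletal protein, fell. The median over the 32 genes was -0.29, against 0.01 for all genes.

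In R26P mutant cerebellum 6 of 32 fell and 1 rose, where 8.7% of all genes fell. Chn1 fell by 3.40 ± 0.35 (adjusted p = 9.0e-04), Olfm1 fell by 1.07 ± 0.24 (adjusted p = 0.0230), Car8 fell by 1.66 ± 0.36 (adjusted p = 0.0213) and the neuronal ubiquitin hydrolase Uchl1 fell by 1.21 ± 0.31 (adjusted p = 0.0375). Chn1 had means of 6.70 in these controls and 3.31 in the mutants, so its call is again a description only. The other 2, Gria1 and the vesicle protein Syp, passed with groups that overlapped. Cadps2, a secretion gene in the granule cell list, rose by 1.01 ± 0.22 (adjusted p = 0.02). Its mean was 9.24 ± 0.38 (SD, n = 4) in these controls and 10.25 ± 0.29 in the mutants. Cadps2 was also at 9.22 in ret controls, where Gabra6 was at 2.16, so it is not read as a granule cell marker here. The median of the 32 was -0.23, against 0.00 for all genes. With the replicate number as a block, which does not pair controls with mutants, 3 of the 32 were called, with no expression filter 1, and with 1 array left out 1 to 6.

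In ret mutants 5 of 32 fell and 4 rose, where 16.6% of all genes were called, with a median of -0.03. Gria1 fell by 1.74 ± 0.26 (adjusted p = 0.0048), Chn1 fell by 1.23 ± 0.22 (adjusted p = 0.0096) and the postsynaptic scaffold Shank3 fell by 1.17 ± 0.20 (adjusted p = 0.0083). Gria1 had means of 5.16 in ret controls and 3.41 in ret mutants, and Chn1 4.21 and 2.99. Both lay under the filter cut of 4 in the mutants, so their calls are a description only. The tubulin-binding Stmn2 fell by 1.30 ± 0.22 (adjusted p = 0.0079) and the membrane fusion gene Stx1a fell by 1.13 ± 0.12 (adjusted p = 0.0013). The splicing factor Rbfox3 rose by 1.56 ± 0.12 (adjusted p = 3.2e-04), Cadps2 rose by 1.34 ± 0.29 (adjusted p = 0.0198), the complexin Cplx1 rose by 1.07 ± 0.29 (adjusted p = 0.0444) and the synapsin Syn2 rose by 0.89 ± 0.19 (adjusted p = 0.0184). With the pituitary covariate, which largely follows genotype here, 4 of the 32 were called. Between the models, 0 of 32 neuronal list genes differed in limma's test (6 at an unadjusted p under 0.05, and 1 with an intensity trend and robust prior).

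Within each genotype, cerebrum and cerebellum arrays of the same number correlated best with each other, so the 9 genes are described by pairs. Gabra6 and Gria4 were higher in cerebellum, and Ddn and Nrn1 were higher in cerebrum, in wild type and in R26P controls. These are differences for which some of the genes were picked. The regions did not overlap for 6 of the 9 genes in wild type (21.7% of all genes), 5 in R26P controls (8.12%) and 1 in R26P mutants (2.77%). Nothing is read from these counts, since the genes were picked in part on this difference.

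In wild type, Gabra6 had 2.62, 2.60 and 2.62 in cerebrum and 4.65, 4.68 and 4.98 in cerebellum, a paired difference of 2.16 ± 0.18 (SD, n = 3). Gria4 had 5.04 on each cerebrum array and 8.23, 7.58 and 7.71 in cerebellum, a difference of 2.80 ± 0.34. Ddn had 5.44, 5.56 and, on the array with Gh at 13.93, 7.23 in cerebrum and 2.85, 2.56 and 2.56 in cerebellum, a difference of -3.42 ± 1.11. Nrn1 had 6.77, 6.59 and 6.41 in cerebrum and 4.15 on each cerebellum array, a difference of -2.44 ± 0.18. The wild-type values of 5.04 for Gria4 and 4.15 for Nrn1 are shared to 2 decimals by 3 arrays each, as a background value would be.

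R26P controls had the same order in all 4 pairs. The differences were 2.38 ± 0.57 for Gabra6, 1.65 ± 0.11 for Gria4, -3.57 ± 0.35 for Ddn and -1.89 ± 0.86 for Nrn1 (SD, n = 4). In R26P mutants Ddn kept a large regional difference of -3.11 ± 1.07, while Gabra6 was at 0.81 ± 0.77, Gria4 at 0.71 ± 1.04 and Nrn1 at 0.00 ± 0.05. Without the unsettled pair 3, Ddn was at -3.63 with a range of -3.84 to -3.35, Gabra6 at 1.15 and Gria4 at 0.96. The change of the R26P effect between regions was not tested for these genes, since it holds the region contrast.

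Of the other genes, Map2 was higher in cerebellum in 3 of 3 wild-type pairs, at 6.79, 6.88 and 7.03 against 7.52, 7.55 and 7.23, a difference of 0.53 ± 0.30. It was 0.42 higher in R26P control cerebellum. Syt1 was lower in cerebellum, with differences of -1.04 ± 0.56 in wild type and -0.68 ± 0.69 in R26P controls. The latter was smaller than its spread and lay mainly in pairs 2 and 3 (-1.51 and -0.95), whose cerebrum arrays had high Gh, against -0.01 and -0.24 in pairs 1 and 4. Snap25, at 0.41 ± 0.87 and 0.60 ± 0.85, and Calb1, at 0.07 ± 1.22 and 0.18 ± 2.39, had regional differences smaller than their spread over pairs. Calb1 in wild type was at 2.84, 2.96 and, with Gh at 13.93, 4.30 in cerebrum and at 4.05, 3.17 and 3.08 in cerebellum.

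**Figure D4:**
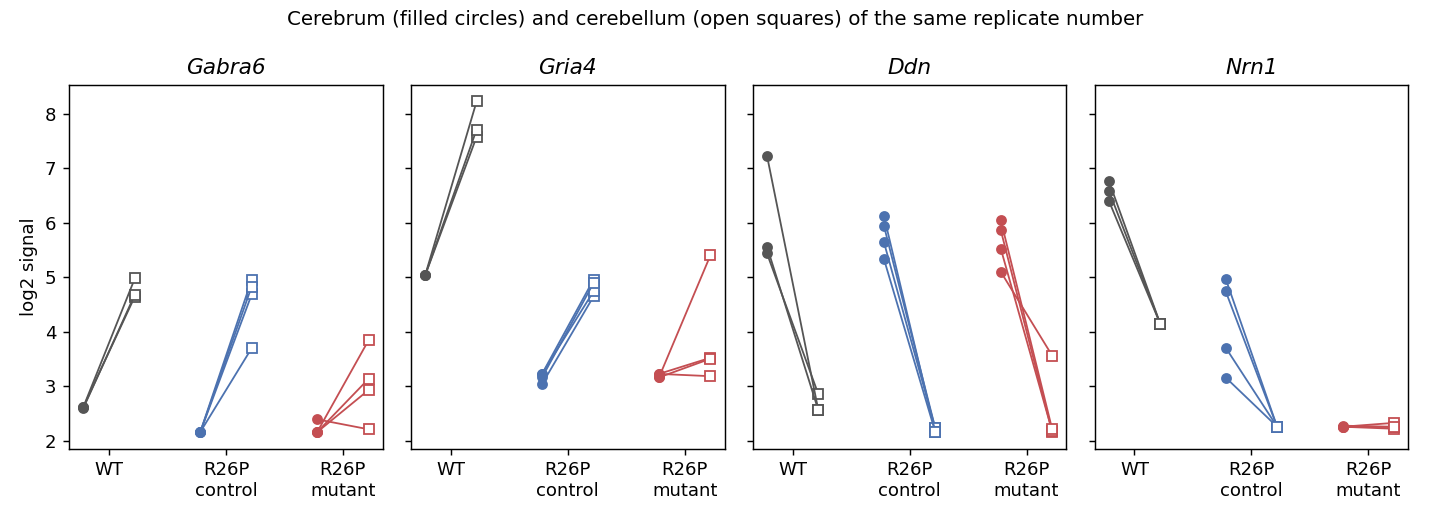
Log2 signal (y axis) of Gabra6, Gria4, Ddn and Nrn1 in cerebrum (filled circles) and cerebellum (open squares) of the same replicate number, joined by lines, for wild type, R26P controls and R26P mutants (x axis). The Ddn lines fall in every pair, and the Nrn1 lines of R26P mutants stay flat at 2.22 to 2.33.

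Of the 32 neuronal list genes, 3 were higher in wild-type cerebellum, where 1.78% of all genes were called higher. Neurod1, a transcription factor of granule cells, was higher by 1.53 ± 0.25 (adjusted p = 0.0448), Olfm1 by 0.66 ± 0.08 (adjusted p = 0.0226) and Rab3a by 0.31 ± 0.05 (adjusted p = 0.0464). The mean of Neurod1 was 4.53 ± 0.35 (SD, n = 3) in wild-type cerebellum and 3.00 ± 0.37 in wild-type cerebrum. Between these groups it reached the filter cut of 4 only where it was high, so its call adds nothing to the count beyond a description. With the pair as a block 1 of the 32 was called, and without any 1 of the 3 pairs 0 were. In R26P controls 1 was higher, Gria1 by 1.86 ± 0.33 (adjusted p = 0.0485), against 0.889% of all genes, and with the pair as a block 4 were called. In R26P mutants limma called 0 of the 32 between regions (2 at an unadjusted p under 0.05), and 0 (0%) of all genes. Apart from the counts with the pair as a block, these region fits left the pairing of arrays out. The 0 in R26P mutants therefore does not show that the regions were alike.

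Ordered by group mean over the 24 arrays normalized together, Map2 ran from R26P control cerebellum (6.81 ± 0.13, SD, n = 4) and R26P control cerebrum (6.39 ± 0.18) to ret controls (4.80 ± 0.36). Below them lay ret mutants (3.98 ± 0.89), R26P mutant cerebellum (3.90 ± 0.56) and R26P mutant cerebrum (3.66 ± 0.75), which differed from each other by less than their spread. Ddn split the groups into a cerebrum pair, at 5.77 ± 0.35 in controls and 5.64 ± 0.42 in mutants, and 4 groups with means of 2.53 or lower. For Snap25, ret controls (2.84 ± 0.52) stood below 5 groups with means of 5.55 to 6.34 that overlapped one another.

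Among the arrays, ret mutant 4 had the highest value of its group for all 5 genes that varied there by more than 0.5 (Map2, Snap25, Syt1, Nrn1 and Calb1). It also had the highest Gh of all 30 arrays. Ret mutant 3, with no high Gh, had the lowest or a tied lowest value for the same 5. Wild-type cerebrum 3, the wild-type array with high Gh (13.93), was the highest of its group for Snap25, Camk2a, Ddn, Calb1, Map2 and Syt1, the last 2 within a narrow range.

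Over the 24 arrays, each gene was set beside the 2 tested genes with the most similar profile, by the mean absolute difference after each gene's own mean was taken away. Map2 was nearest to Pde1a, a phosphodiesterase, at 0.31 and Map7d2 at 0.38, where its own mean deviation was 1.17. Snap25 was nearest to the stathmin Stmn3 (0.49, own deviation 1.36) and Nrn1 to St6galnac5 (0.21, own deviation 0.54). Gabra6 was nearest to Gria4 (0.28, own deviation 0.76), and Gria4 in turn to St8sia1 (0.23, own deviation 0.56). The nearest genes of Ddn and Calb1, Kif5a at 0.70 and Armh4 at 0.74, lay further off, against own deviations of 1.53 and 1.18. For Syt1 and Camk2a the nearest genes were Elmod1 (0.18, own deviation 0.58) and Nrp (0.10, own deviation 0.14). Relative to its own deviation, the match of Camk2a was the loosest of all. The matches of Syt1, Camk2a, Nrn1, Gria4 and Gabra6 lay largely over arrays at background, which were 15 to 19 of the 24.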

How the data were processed

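Per the labels, RNA of microvascular fragments was amplified and hybridised to Affymetrix arrays, 1 per sample. The authors deposited log2 signals, which per the submitters' processing notes come from GCRMA 2.6.0 run in R 2.4.1, and these were used unchanged. The 24 ret and R26P arrays share a lowest value of 2.16, held by 35.8% to 37.0% of their values, and the 6 wild-type arrays share 2.17 (32.3% to 32.7%). Such values are background, so differences that reach them are compressed. Of 45101 probe sets, 34958 were paired with 1 gene by the platform annotation, 932 with several and 9211 with none. Each of 18194 genes was taken from its probe set with the highest mean over 30 arrays, and the 11243 genes above 4 on at least 3 arrays were tested with limma 3.58.1 in R 4.3.3 (eBayes, two-sided, Benjamini-Hochberg adjustment over all of them, threshold 0.05), on the arrays of the groups compared. The procedure was tested on simulated data. The number of arrays, 3 or 4 a group, limits the precision. No arrays held identical values.

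The 9 genes and the neuronal lists were chosen with earlier results of these data known. From each list and comparison, up to 3 genes with the largest change among those past the threshold without overlap are named; Gria1 and Syp in R26P cerebellum, and the genes below the filter, were named after their values were seen. Comparisons of mutants with controls share arrays with the region contrasts, and the model comparison shares the arrays of both. Replicates are biological per the labels. After group means were removed, same-numbered cerebrum and cerebellum arrays had correlations of 0.344 to 0.840, each best with its own number. Between controls and mutants same-numbered arrays correlated at -0.199 to 0.337 and do not pair. Alternatives were no filter, a mean above 6, averaging the probe sets of a gene, an intensity trend with robust prior, renewed quantile normalization, the replicate block, the sex label, leaving out each replicate, and, added after the data were seen, the pituitary list mean as a covariate.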

Additional observations from a re-analysis of the deposited data

Results flagged for a closer look

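Within groups of 4 arrays, 9 of 38 combinations of gene and group had 1 array far from the others by Dixon's criterion, where chance gives about 1 in 20 for normally spread values. That rate does not hold here, since most of these groups have the other arrays at a shared background value, so that any array above it stands apart. Groups of 3, and groups that spanned less than 0.1, were not examined. For Syt1 these were ret mutant 4 at 6.65, R26P mutant cerebrum 3 at 4.83 and R26P mutant cerebellum 3 at 3.86, all of them arrays with high Gh. Camk2a stood apart at 3.19 on R26P mutant cerebrum 1. Gabra6 stood apart at 2.39 on R26P mutant cerebrum 3, and Ddn at 3.56 on R26P mutant cerebellum 3, the pair with unsettled region labels. Gria4 stood apart at 3.01 on ret mutant 3, below the others, and at 5.40 on R26P mutant cerebellum 1, above the others. Nrn1 stood apart at 2.90 on ret mutant 4. The effect of the genotype on Nrn1 differed between the models by 2.04 on the log2 scale (ret minus R26P cerebrum, adjusted p = 0.0246 in limma). All 4 ret controls were at the Nrn1 background of 2.26, where a fall could not be measured, so the difference mainly restates the R26P fall. The call was lost with no expression filter (adjusted p = 0.0537) and without ret control 1 (0.0523).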

How the results depend on the processing

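Signal over background limits most of these genes, since Syt1, Camk2a, Nrn1, Gria4 and Gabra6 sit at a shared low value on most arrays, where a fall cannot be seen. For causes other than fewer genes or arrays, the cause of a change below was not tested. No filter lowered the number of all genes called from 1870 to 1229 in ret mutants, 2097 to 1390 in R26P cerebrum, 1758 to 1081 in R26P cerebellum, 238 to 58 between wild-type regions, 132 to 47 between R26P control regions, 377 to 177 between models and 13 to 6 for the R26P effect between regions, and raised it from 0 to 1 between R26P mutant regions. It left 3 neuronal list genes of 6 in R26P cerebrum and 1 of 7 in R26P cerebellum. A mean above 6 gave 5 of 9 in ret mutants, 3 in R26P cerebrum, 0 of 1 between R26P control regions, and 0 of all genes for the R26P effect between regions. The mean of all probe sets gave 0 of 3 list genes in wild-type regions, 68 genes in R26P control regions and 4 for the R26P effect between regions. An intensity trend with robust prior gave 5 list genes in wild-type regions, 2 in R26P control regions and 1 between models, and renewed quantile normalization gave 2 in R26P control regions.

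With the replicate number as a block, all genes called were 987 in ret mutants, 1278 in R26P cerebrum, 135 in wild-type regions, 475 in R26P control regions and 45 for the R26P effect between regions; list genes called were 3 in R26P cerebellum, 1 in wild-type regions and 4 in R26P control regions. Of the 9 genes only Gabra6 in R26P cerebellum changed its call under the block, to adjusted p = 0.0686, where same-numbered controls and mutants do not pair. The sex label as covariate gave 1051 genes in ret mutants. Xist went against that label on all 4 ret controls, so this fit does not adjust for sex. The pituitary covariate, added after the data were seen, gave 927 genes and 4 list genes there, and turned Snap25 to -0.89, Syt1 to -0.52, Nrn1 to -0.11 and Calb1 to -0.84.

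Leaving out 1 array gave 1153 to 1931 genes in ret mutants, 1387 to 1945 in R26P cerebrum (list genes 2 to 10), 1117 to 1572 in R26P cerebellum (1 to 6), 127 to 611 between models (0 to 1) and 6 to 14 for the R26P effect between regions. Leaving out 1 pair gave 0 to 1 in wild-type regions (list genes 0), 9 to 72 in R26P control regions (0 to 1) and 0 to 15 in R26P mutant regions. Uncalled values also changed sign: in R26P cerebrum Snap25 was 0.012 with all probe sets and -0.95 to 0.38 with 1 array out, Syt1 -0.68 to 0.055, Ddn -0.27 to 0.048 (0.012 renormalized), Gria4 -0.011 to 0.051 and Camk2a 0.068 renormalized. In R26P cerebellum Syt1 was -0.0015 to 0.28, Ddn -0.014 to 0.45 and Nrn1 -0.012 to 0.024. Between models Ddn was -0.11 to 0.21 (-0.12 renormalized) and Camk2a -0.17 renormalized.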
